A study of Mus musculus with 12 samples.

Results

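The comparison described here sets dB/dB catalase-Tg mice against catalase-Tg mice, 3 arrays against 3, so that both sides carry the catalase transgene and differ in the dB/dB genotype. The 6 arrays were taken by their sample titles from a series of 12 that also holds 3 wild-type and 3 dB/dB arrays. All 4 groups were mice 20 weeks old on a normal diet and water. Their kidney proximal tubules had been separated by Percoll centrifugation, and total RNA extracted with Trizol was labelled as biotinylated cRNA for Affymetrix mouse arrays. The labels give no strain, sex or litter, do not say how many mice stand behind a sample, and do not name the promoter or species of origin of the transgene. Nothing in them says that the 3 samples of a group came from separate animals, so the p-values speak only of the spread among these samples, and that spread may be technical.

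The dB/dB mouse lacks a signalling leptin receptor, encoded by Lepr, and overeats, becomes obese and develops type 2 diabetes with kidney disease. Catalase is the peroxisomal enzyme that splits hydrogen peroxide into water and oxygen, and catalase-transgenic mice are used to ask what lower peroxide does to the diabetic tubule. In the transgenic line known from work on diabetic nephropathy, rat catalase is driven in proximal tubule cells by the promoter of Kap, an androgen-regulated kidney gene. The comparison asks what the dB/dB genotype changes in tubules of mice that all carry the catalase transgene. The proximal tubule reclaims most filtered glucose, amino acids, phosphate and protein, makes glucose and burns fatty acids, while the loop of Henle, distal tubule and collecting duct downstream of it adjust salt and water.

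Levels are on the log2 scale of the deposited table, which has a floor at 2.30 where many probe sets without signal lie. A difference of 1 on this scale is a doubling. Tests were run on the 18144 probe sets, standing for 9751 genes, that exceeded 4 on 3 or more arrays, and a call means an adjusted p under 0.05 over all of them. Because the samples are bulk RNA, fewer cells of a type and less RNA per cell cannot be told apart in any value below.

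Several arrays stood apart from the others of their group. Catalase-Tg 1 and dB/dB catalase-Tg 1 received limma array weights of 0.287 and 0.172, against 2.32 to 3.03 for the other 4 arrays, and wild type 1, which enters through the shared spread, received 0.227. Their mean score for endothelial, podocyte and mural markers, which is the mean log2 distance of the markers from their average over the 12 arrays, was -0.62 on catalase-Tg 1 against -1.59 and -1.62 on catalase-Tg 2 and 3. It was 1.28 on dB/dB catalase-Tg 1 against -1.06 and -1.22 on dB/dB catalase-Tg 2 and 3. Between 36.9% and 37.2% of probe sets were above 4 on the 6 arrays. Results below are given with all 6 arrays, and beside them, as a difference without the arrays numbered 1, where those arrays matter.

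Both groups carry the transgene, so a comparison between them cannot show it. Cat, which encodes catalase, read 11.98, 12.42 and 12.39 on catalase-Tg 1 to 3 and 11.78, 12.64 and 12.90 on dB/dB catalase-Tg 1 to 3 with the first of its probe sets. The groups overlapped, and the log2 difference was 0.18 (SE 0.48, adjusted p = 0.939). The second Cat probe set gave 0.20 (SE 0.57, adjusted p = 0.944), and the sign of both turned when single arrays were left out, to -0.12 at the lowest. Catalase-Tg averaged 0.34 and 0.44 above wild type with these probe sets, beside SDs of 1.10 and 1.24 among the wild-type arrays. Whether these mouse probe sets read the transgene's transcript is not given in the sources used here. Lepr could not serve as a check of the dB/dB genotype, since its 4 probe sets lay between 2.30 and 3.03 and below the filter.

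The defining markers of the proximal tubule were all present in both groups. All 18 of them passed the filter, with a median difference of -0.26. In 2 of the 18 the groups did not overlap, both lower in dB/dB catalase-Tg, beside 9.97% of all genes. Slc34a1, the main phosphate transporter, read 14.07, 13.79 and 13.74 on the catalase-Tg arrays and 13.66, 13.64 and 13.71 on the dB/dB catalase-Tg arrays. Those groups did not overlap, by a difference of -0.19 (adjusted p = 0.847). Slc5a2, which encodes the glucose carrier SGLT2, differed by -0.30 and Lrp2, which encodes the endocytic receptor megalin, by -0.45, with overlap in both. Ass1, the argininosuccinate synthase with which the tubule makes arginine, differed by -1.0, also with overlap. Among sex-linked transcripts, Y-linked Eif2s3y read 7.88 to 8.63 and X-linked Xist 2.31 to 2.67 over the 6 arrays. Wild type 2 and 3 stood apart in Xist, at 11.91 and 6.72. Eif2s3y was at the floor on wild type 2, at 2.30, and read 7.89 on wild type 3. Wild type 2 thus read as female and wild type 3 gave both signals, so the wild-type arrays may mix sexes. Wild type 2 and 3 enter the results below through the shared spread, the contrast of dB/dB with wild type and the interaction. They also enter the counts that set a group against all other arrays.

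The 5 probe sets that passed the test were all lower in the dB/dB catalase-Tg arrays. limma called 5 of 18144, 0.0276% of those tested, and 0 in the other direction, with 1245 at an unadjusted p under 0.05. The 5 stood for Angptl7, Fkbp1b, 1700028P14Rik, Ang and a probe set without a gene symbol. Each was at its highest on the 3 catalase-Tg arrays, which lay above all 9 other arrays of the series, so that dB/dB catalase-Tg sat with the groups that carry no transgene. Angptl7 and Fkbp1b passed the filter only through the 3 catalase-Tg arrays, which fixed that pattern for these genes once they were tested. Some other fits made calls in both directions, with 428 higher and 455 lower under array weights, 11 and 11 without wild type 1, and 7 and 5 without wild type 2.

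Angptl7, a secreted angiopoietin-like glycoprotein best known from the eye's outflow tissue, gave the largest called difference. It read 7.51, 7.96 and 9.47 on catalase-Tg 1 to 3 and 2.60, 2.49 and 2.49 on dB/dB catalase-Tg 1 to 3. Wild type read 2.49, 2.48 and 2.49, and dB/dB 2.36, 2.49 and 2.37. The 9 arrays outside catalase-Tg thus lay close to the floor, and signal appeared on the 3 catalase-Tg arrays alone. Angptl7 fell by 5.79 on the log2 scale, a ratio of the deposited values of 55.2 (SE 0.39, adjusted p = 0.000485), from a mean of 8.32 ± 1.03 to 2.53 ± 0.06 (SD, n = 3 each). A value near the floor cannot show how far below it the transcript lies. The spread of 1.03 within catalase-Tg was larger than the 0.06 within dB/dB catalase-Tg, while the test used a spread shared by the 4 groups. Without the arrays numbered 1 the difference was -6.22, and in 27 alternative settings the call held in 25, with adjusted p from 4.46e-06 to 0.0875. It was lost with the 6 arrays alone in the fit, at 0.0583, and with those 6 and a replicate block, at 0.0875.

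Fkbp1b, which encodes calstabin 2, an FK506-binding subunit of the ryanodine receptor calcium channel, read 5.15, 4.59 and 5.21 on the catalase-Tg arrays and 3.07, 2.52 and 2.52 on the dB/dB catalase-Tg arrays. Wild type and dB/dB lay between 2.36 and 2.66, so dB/dB catalase-Tg 1 was slightly above the other arrays near the floor. Fkbp1b fell by 2.28 (SE 0.22, adjusted p = 0.00686), from 4.99 ± 0.35 to 2.70 ± 0.32. The call was lost without catalase-Tg 3, at an adjusted p of 0.0681, without dB/dB catalase-Tg 2, at 0.0707, and without dB/dB catalase-Tg 3, at 0.0712. Over 26 alternatives the adjusted p ran from 0.000124 to 0.106.

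Ang encodes angiogenin, a secreted ribonuclease that promotes vessel growth and cleaves tRNA under stress. It read 5.37, 5.54 and 6.30 on the catalase-Tg arrays and 2.70, 2.81 and 2.77 on the dB/dB catalase-Tg arrays. The wild-type arrays, at 3.35, 4.74 and 3.80, lay between these, and dB/dB, at 2.77, 2.91 and 3.61, reached down to the lower group. Ang fell by 2.97 (SE 0.37, adjusted p = 0.038), from 5.73 ± 0.49 to 2.76 ± 0.06. A second Ang probe set read 4.32, 4.03 and 3.91 against 3.04, 2.59 and 2.82, also without overlap, for a difference of -1.27 that did not pass (adjusted p = 0.709). The call on the first probe set was lost without any 1 of the 6 arrays compared, of the 3 dB/dB arrays or of wild type 3, with adjusted p between 0.0581 and 0.246. Over 27 alternatives it ran from 0.00081 to 0.246, and 8 kept the call. Rnase4 is a ribonuclease gene with a listed start that coincides with that of Ang and a further start that does not. It read 6.94, 7.32 and 8.04 against 5.95, 4.6 and 4.25, a difference of -2.50 (SE 1.09, adjusted p = 0.714).

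1700028P14Rik, a gene known only by its cDNA clone name, read 6.12, 6.03 and 5.87 on the catalase-Tg arrays and 4.00, 3.29 and 3.52 on the dB/dB catalase-Tg arrays. Wild type 3, at 4.85, came nearest to the catalase-Tg group, and the dB/dB arrays lay between 3.30 and 3.51. It fell by 2.40 (SE 0.27, adjusted p = 0.0224), from 6.01 ± 0.13 to 3.60 ± 0.36. The call was lost without any 1 of the 3 catalase-Tg or 3 dB/dB arrays, or of dB/dB catalase-Tg 2 and 3, at adjusted p from 0.0581 to 0.202. The probe set without a symbol, 1440662_at, read 7.27, 7.33 and 6.88 against 5.55, 5.57 and 5.03. It fell by 1.77 (SE 0.22, adjusted p = 0.038) and its wild-type and dB/dB arrays read 5.19 to 5.83. Its call was the least stable of the 5. It was lost without wild type 3, without any 1 dB/dB array and without any 1 of the 6 arrays compared, at adjusted p from 0.0697 to 0.246, and with the replicate number as a block, at 0.0595.

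The sequences just before the starts of the 4 named genes are shown because these genes are the calls that the comparison made, and all 4 were high on the same 3 arrays. They are the 250 bases before each start in RefSeq on build GRCm38.p6, 5′ to 3′ on the gene's own strand. For Angptl7 the stretch is chr4:148500463-148500712 on the minus strand. For Fkbp1b it is chr12:4841574-4841823 on the minus strand, for Ang chr14:51090827-51091076 on the plus strand and for 1700028P14Rik chr19:23652813-23653062 on the minus strand. Capitals mark matches on either strand to 4 motifs. The TATA box was searched as TATAAA and the CCAAT box by the letters of its name. The GC box was searched as GGGCGG. The core of the antioxidant response element was searched as TGACNNNGC.
Angptl7: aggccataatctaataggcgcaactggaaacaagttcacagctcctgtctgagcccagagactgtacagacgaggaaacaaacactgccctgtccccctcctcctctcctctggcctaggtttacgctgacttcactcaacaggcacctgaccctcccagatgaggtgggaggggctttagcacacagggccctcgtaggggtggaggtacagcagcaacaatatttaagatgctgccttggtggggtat
Fkbp1b: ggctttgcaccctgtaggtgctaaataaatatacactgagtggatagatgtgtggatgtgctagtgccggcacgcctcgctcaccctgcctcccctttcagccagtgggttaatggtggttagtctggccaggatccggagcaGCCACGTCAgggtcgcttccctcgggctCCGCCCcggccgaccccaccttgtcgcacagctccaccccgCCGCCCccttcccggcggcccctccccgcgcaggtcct
Ang: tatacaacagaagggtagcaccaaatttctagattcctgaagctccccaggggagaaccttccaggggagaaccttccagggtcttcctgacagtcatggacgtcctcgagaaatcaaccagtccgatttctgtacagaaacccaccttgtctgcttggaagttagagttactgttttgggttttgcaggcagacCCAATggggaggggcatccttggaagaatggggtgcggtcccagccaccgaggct
1700028P14Rik: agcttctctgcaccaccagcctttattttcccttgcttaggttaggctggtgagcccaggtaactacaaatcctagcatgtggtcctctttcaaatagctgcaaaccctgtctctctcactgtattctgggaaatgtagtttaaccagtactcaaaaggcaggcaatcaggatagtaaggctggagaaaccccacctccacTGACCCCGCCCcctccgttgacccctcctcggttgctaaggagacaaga
No motif occurred in all 4. The Angptl7 stretch held 0 of the 4 motifs, Ang held 1 CCAAT box, Fkbp1b held 2 GC boxes and 1 antioxidant element core, and 1700028P14Rik held 1 GC box and 1 antioxidant element core that overlap. Among 32851 promoters of the same length, 12.4% held the TATA box, 33.8% the CCAAT box, 32.7% the GC box and 10.2% the antioxidant element core. A match is only a run of letters, and the absence of one says nothing about a factor.

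**Figure D1:**
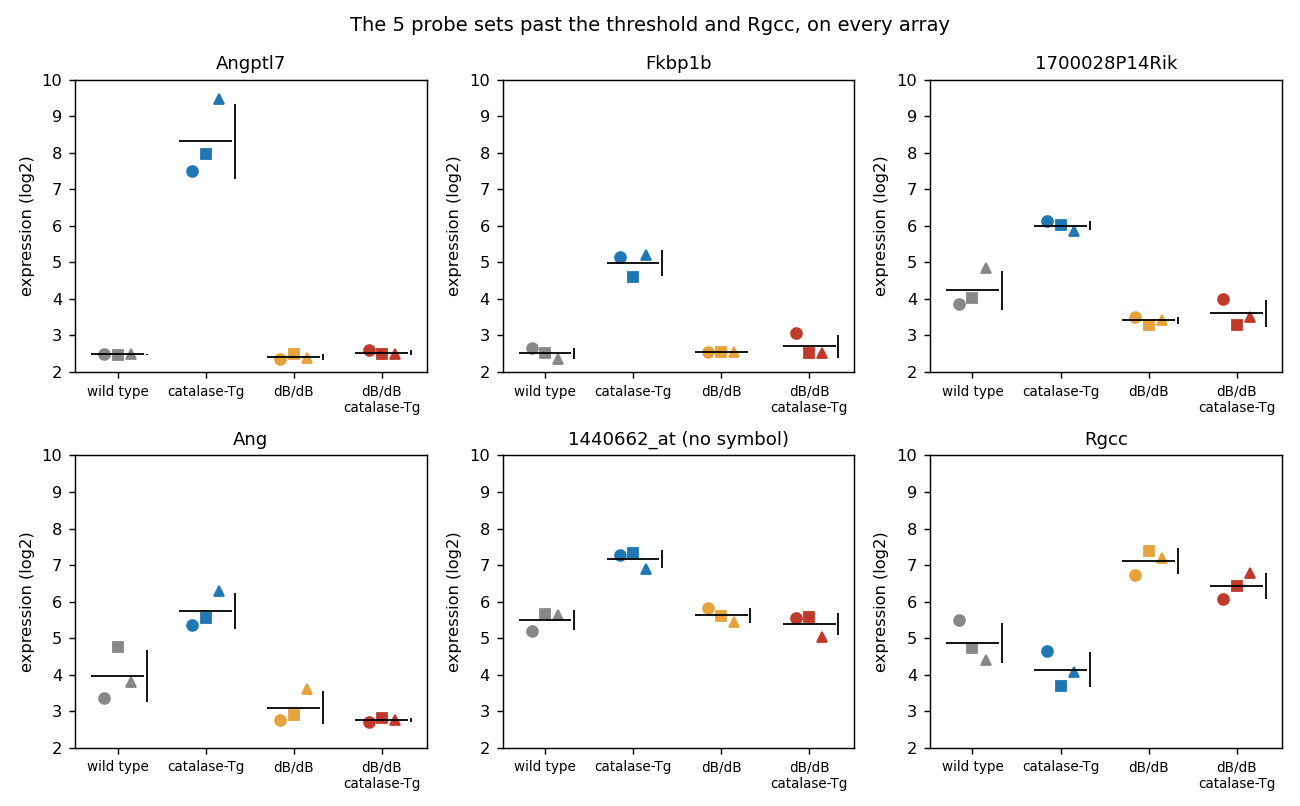
Log2 expression of the 5 called probe sets and of Rgcc on the 12 arrays, by group (3 arrays each). Points are arrays with marker shape for the replicate number, lines are group means and bars are SD. In the 5 called probe sets the 3 catalase-Tg arrays lie above the other 9, and for Rgcc all 6 dB/dB arrays lie above the other 6.

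Genes whose groups did not overlap were counted next, as a description that sets no threshold on size. Of 9751 genes, 769 were higher in all 3 dB/dB catalase-Tg arrays than in all 3 catalase-Tg arrays (7.89%) and 972 were lower (9.97%). The median difference over all genes was -0.09, and 39.4% of genes lay above 0. Among the 769 higher genes, the 3 catalase-Tg arrays were below all 9 others in 288 (37.5%), and the 3 dB/dB catalase-Tg arrays above all 9 others in 6 (0.78%). Among the 972 lower genes, catalase-Tg was above all 9 others in 305 (31.4%), and dB/dB catalase-Tg below all 9 others in 48 (4.94%). In 30 of the lower genes (3.09%) and 1 of the higher ones (0.13%) all 6 dB/dB arrays lay on the same side of all 6 others. These shares are counts over genes that move together, and no test was made of them.

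That 1 higher gene was Rgcc, a regulator of cell cycle progression and complement response, named here after its values were seen. It read 4.66, 3.69 and 4.07 on the catalase-Tg arrays and 6.06, 6.43 and 6.78 on the dB/dB catalase-Tg arrays. Wild type read 5.48, 4.72 and 4.41, and dB/dB 6.72, 7.40 and 7.20. The dB/dB arrays were therefore above the non-dB/dB arrays with and without the transgene. The difference was 2.29 (SE 0.34) and missed the threshold (adjusted p = 0.146). It passed in 3 of 27 alternatives, namely array weights, without wild type 1 (0.0277), and without the 3 arrays numbered 1 that stood apart (0.0237).

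Genes were next ranked by the probe set with the largest difference, which is not always a gene's brightest. Among those without overlap whose higher group mean was above 6, the 10 highest in dB/dB catalase-Tg by difference included 3 markers of the loop and distal tubule, Calb1, Sostdc1 and Cldn16, and 0 of the 10 passed the test. Calb1, which encodes the calcium buffer calbindin-D28k of the distal convoluted and connecting tubule, read 9.47, 9.75 and 9.60 on the catalase-Tg arrays and 12.97, 12.56 and 12.47 on the dB/dB catalase-Tg arrays with the brightest of its 3 probe sets. Its differences were 3.06 (SE 0.70, adjusted p = 0.463), 3.37 and 3.00 over the 3 probe sets, none overlapping. Klk1, tissue kallikrein, a kinin-releasing protease secreted by the connecting tubule, read 10.96, 11.40 and 11.22 against 14.73, 14.28 and 14.17. The groups lay well apart, at a difference of 3.20 (SE 0.66, adjusted p = 0.418), while its other probe sets gave 3.19, 0.47 and 0.13, the last with overlap. With only the 6 arrays in the fit, 6 probe sets were called, all higher in dB/dB catalase-Tg and none of them among the 5 above. They were the 3 of Calb1, 2 of Klk1 and 1 of Rab6b, a neuronal Golgi GTPase gene, with adjusted p from 0.0392 to 0.0476, and all were lost with the replicate block in that fit, which called 0 (lowest adjusted p = 0.0875, 2701 at an unadjusted p under 0.05). Leaving out wild type 2 from the fit of all arrays also brought the 3 Calb1 probe sets past the threshold, at adjusted p from 0.00244 to 0.00305, and Klk1 and Slc8a1 at 0.0149.

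Slc8a1, which encodes the sodium-calcium exchanger NCX1, read 2.96, 4.16 and 4.53 against 8.19, 7.92 and 7.37, a difference of 3.94 (SE 1.08, adjusted p = 0.567). S100g, which encodes calbindin-D9k, read 6.61, 6.10 and 6.38 against 10.92, 9.14 and 9.03, a difference of 3.34 (adjusted p = 0.46). Cldn16, a tight junction claudin that passes magnesium in the thick ascending limb, read 3.18, 5.06 and 5.08 against 7.79, 7.67 and 7.26, a difference of 3.13 (adjusted p = 0.541). In all 3 the groups were separate, and catalase-Tg 1 was the lowest array for Slc8a1 and Cldn16. Sostdc1, a secreted antagonist of BMP and Wnt signals made by the distal tubule, read 4.58, 7.59 and 7.77 against 10.54, 9.98 and 10.23, and its difference of 3.60 became 2.43 without the arrays numbered 1. Tspan1, a tetraspanin gene, differed by 3.23 and by 0.62 with its second probe set, and Fads6, a fatty acid desaturase gene, by 3.23 and 1.52.

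Cyp4a14 and H2-Eb1 completed the 10 genes that were highest in dB/dB catalase-Tg. Cyp4a14, a fatty acid hydroxylase and a classic PPAR-alpha target, read 3.00, 3.52 and 3.33 on the catalase-Tg arrays and 7.22, 8.03 and 11.64 on the dB/dB catalase-Tg arrays. Its spread elsewhere was as wide, at 2.48, 11.74 and 5.96 in wild type and 7.41, 4.10 and 9.65 in dB/dB, and the difference of 5.68 had an SE of 2.13 (adjusted p = 0.697). H2-Eb1, an MHC class II chain, read 3.08, 2.91 and 3.41 against 9.20, 6.05 and 4.72. dB/dB catalase-Tg 1 was the highest array, and without the arrays numbered 1 the difference of 3.53 was 2.23.

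Chosen in the same way, the 10 lowest genes in dB/dB catalase-Tg held Angptl7 and 1700028P14Rik, which were called, and 8 others that were not. Bex1, a brain-expressed X-linked adaptor of neurotrophin signalling, read 8.61, 9.37 and 9.29 on the catalase-Tg arrays and 4.26, 6.58 and 5.82 on the dB/dB catalase-Tg arrays. The groups lay far apart, for a difference of -3.53 (SE 0.60, adjusted p = 0.331), which passed with the replicate number as a block (adjusted p = 0.0479) and with the marker score of other cells as a covariate (0.0121). Slc6a15, a neutral amino acid transporter, read 8.35, 8.08 and 8.10 against 4.41, 6.54 and 6.07, a difference of -2.50 (adjusted p = 0.659). Odc1, ornithine decarboxylase, the first enzyme of polyamine synthesis, read 9.45, 10.53 and 9.99 against 6.91, 8.23 and 8.12. Its difference of -2.24 was larger than those of its other probe sets, -1.19 without overlap and, in the brightest, -0.46 with it.

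The other genes among the 10 lowest, apart from Rnase4 above, lay between -2.39 and -2.63. Clec2h, a C-type lectin gene, read 10.38, 10.05 and 9.97 against 6.92, 8.78 and 7.15, a difference of -2.52, with -1.65 and -1.86 in its other probe sets, all without overlap. Prxl2b, a prostamide synthase, read 7.87, 10.17 and 10.25 against 6.31, 6.97 and 7.11, a difference of -2.63. Car3, a carbonic anhydrase rich in the male kidney and in muscle, read 5.63, 7.82 and 7.90 against 5.04, 4.35 and 4.79. Its difference of -2.39 was -1.79 with overlap in the other probe set. Paip1, a partner of the poly(A)-binding protein in translation, differed by -2.54, and by -1.36 and -0.65 in its other probe sets, the last with overlap.

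Lists of genes for the tissue were then read as groups. Of 879 entries in 29 lists, 662 were tested, 130 lay below the filter, 87 had no probe set, and 0 of the 662 were called, where 0.0276% of all probe sets were. In 10 lists the median difference lay more than 0.5 from the -0.09 of all genes. These were 6 marker lists of other kidney cells, tubular injury, interferon and MHC class I genes, glycolysis, and androgen-responsive genes. The lists were chosen with earlier results of these data known, so their medians describe these arrays and support nothing further.

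**Figure D2:**
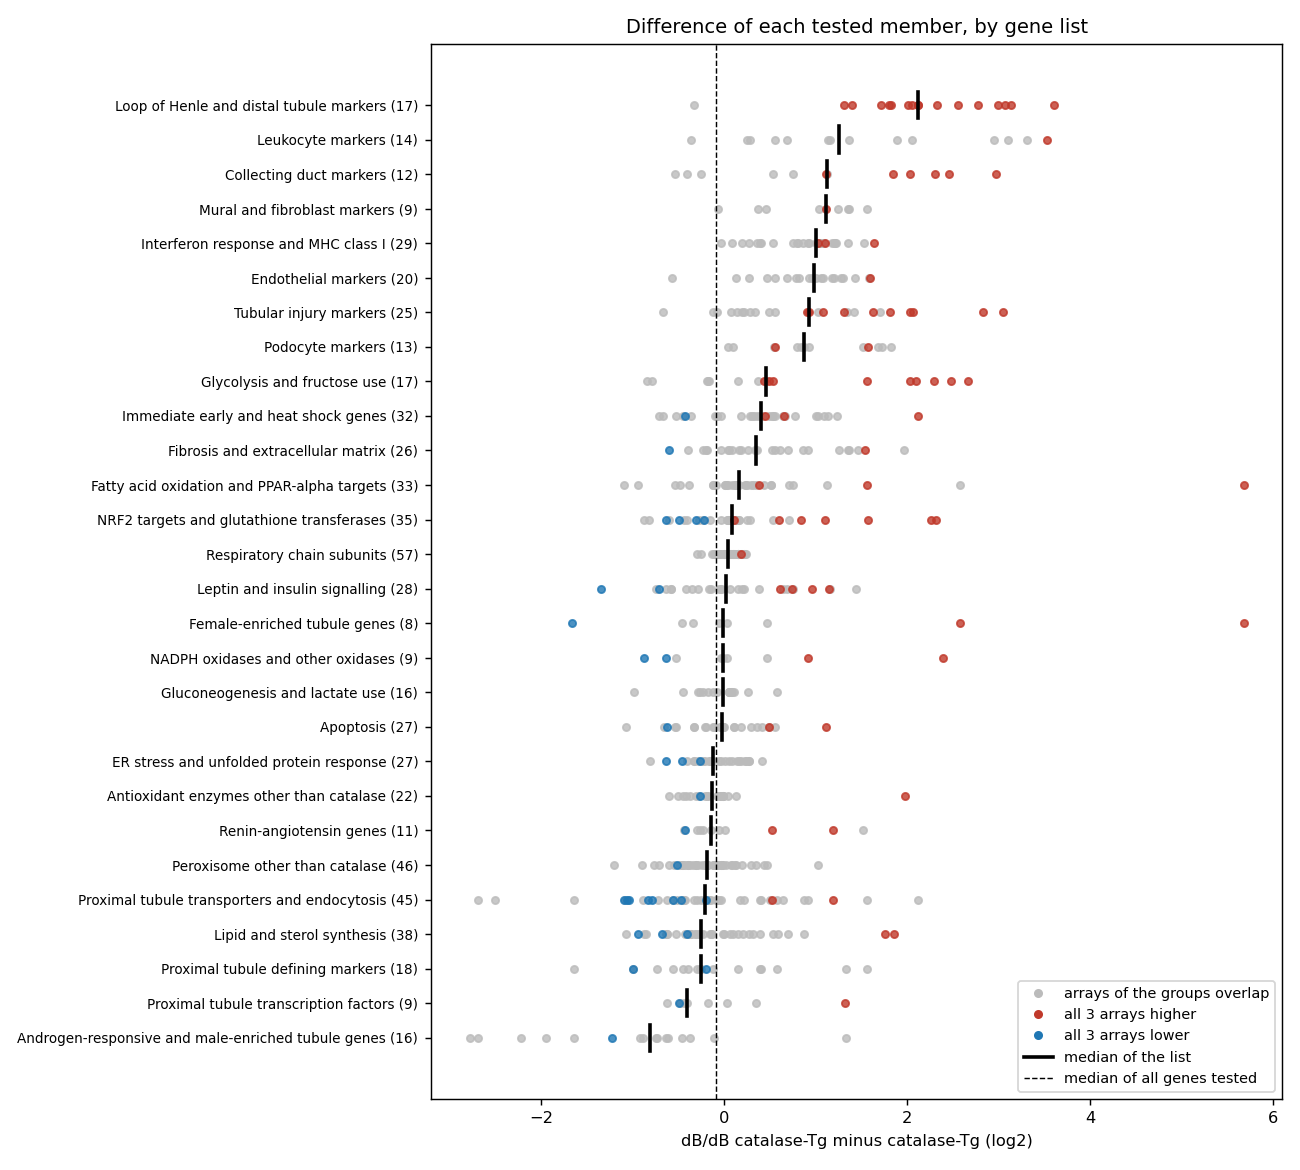
Log2 difference of dB/dB catalase-Tg minus catalase-Tg for each tested member of 28 lists, 1 point per gene, coloured where the groups do not overlap, with the list's median as a bar and that of all genes as a dashed line. The list of loop of Henle and distal tubule markers has the highest median, 2.12, and the androgen-responsive list the lowest, -0.81, beside -0.09 for all 9751 genes.

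Markers of the loop of Henle and distal tubule were higher in dB/dB catalase-Tg almost throughout. Of 17 tested, 16 lay above 0 and the same number were separate between the groups, with 0 separate in the other direction, beside 7.89% and 9.97% of all genes. The list's median was 2.12, and 1.57 without the arrays numbered 1, where all genes had -0.04. Umod, which encodes uromodulin, the main protein of normal urine, made in the thick ascending limb, read 12.49, 13.35 and 13.48 against 14.54, 14.36 and 14.35, a difference of 1.31 (SE 0.36, adjusted p = 0.567). Slc12a1, the NKCC2 cotransporter that furosemide blocks, read 8.70, 10.64 and 10.77 against 12.84, 12.70 and 12.89, a difference of 2.77 (SE 0.69, adjusted p = 0.505). Egf, whose precursor is made in the distal tubule, read 10.68, 11.63 and 11.46 against 13.59, 12.96 and 13.25, a difference of 2.01 (SE 0.53, adjusted p = 0.541). In these 3 genes catalase-Tg 1 was the lowest array and dB/dB catalase-Tg 1 was at or near the highest.

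The score of this list kept the groups separate on every array. It was -2.22, -1.44 and -1.55 on catalase-Tg 1 to 3 and 0.94, 0.13 and 0.14 on dB/dB catalase-Tg 1 to 3. Collecting duct markers moved with it, at -0.88, -0.82 and -0.89 against 0.91, -0.01 and -0.02. Of the 12 tested among 22 collecting duct markers, 9 were above 0, with a median of 1.12. Of these 12, 6 were separate, all higher, beside 7.89% of all genes. Rhcg, an ammonia channel of intercalated cells, read 3.49, 4.69 and 4.38 against 8.32, 6.43 and 6.71, a difference of 2.97 (SE 1.04). Scnn1a, a subunit of the epithelial sodium channel, read 4.26, 4.88 and 4.53 against 7.52, 6.51 and 7.03, a difference of 2.46, and Atp6v0d2, a proton pump subunit, differed by 2.03. Aqp2, the water channel that defines principal cells, was at the floor of 2.30 and below the filter. An alternative chosen after seeing the data took the mean of the distal and collecting duct scores as a covariate. It called 1 probe set, Angptl7 (difference -5.91, adjusted p = 0.0287). That mean was -1.55, -1.13 and -1.22 on catalase-Tg 1 to 3 and 0.93, 0.06 and 0.06 on dB/dB catalase-Tg 1 to 3. It is thus confounded with the comparison and can take up part of any difference between the groups.

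**Figure D3:**
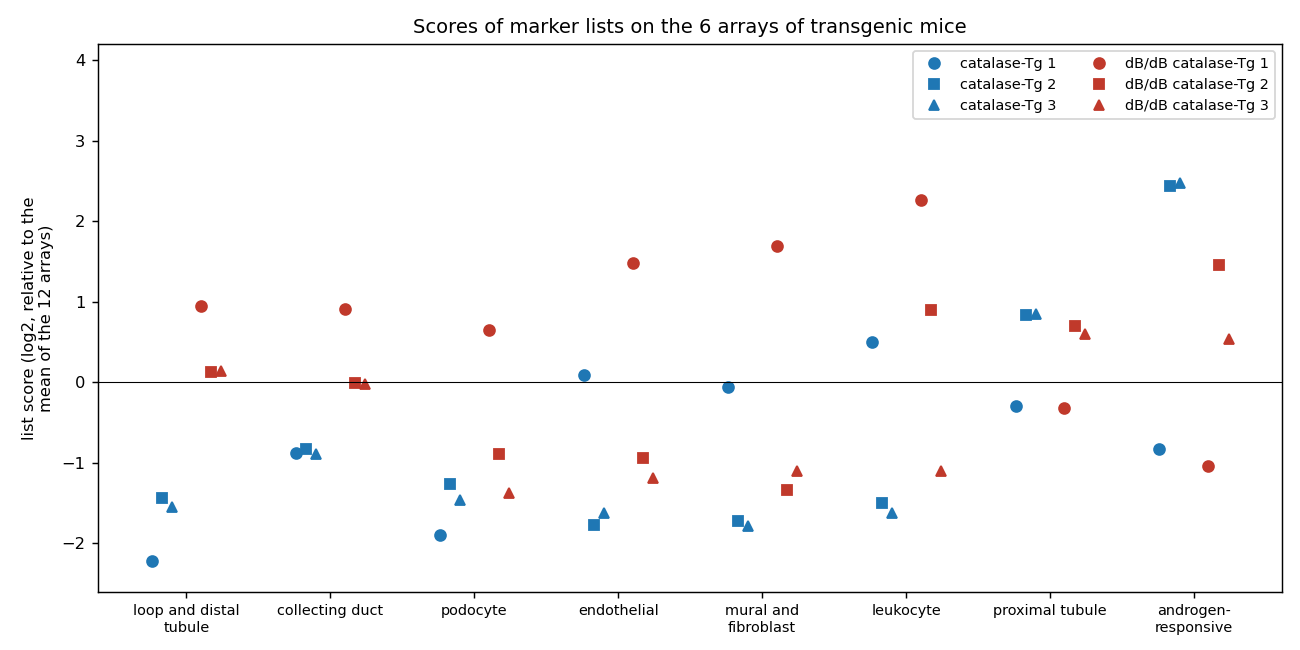
Scores of 8 lists, the mean log2 distance of their members from the average of 12 arrays, on each of the 6 arrays. Loop and distal tubule scores run from -2.22 to -1.44 in catalase-Tg and from 0.13 to 0.94 in dB/dB catalase-Tg, while endothelial, podocyte, mural and leukocyte scores are high on dB/dB catalase-Tg 1.

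Markers of endothelium, podocytes, mural cells and leukocytes also had medians above 0. Without the arrays numbered 1 the medians of the first 3 of these lists were lower and that of the leukocyte list was higher. The endothelial score was 0.09, -1.77 and -1.62 on the catalase-Tg arrays and 1.48, -0.94 and -1.18 on the dB/dB catalase-Tg arrays, so the groups overlapped. Of 20 tested endothelial markers 19 lay above 0, with a median of 0.98, and 0.66 without the arrays numbered 1. Of the 20, 1 was separate and higher, beside 7.89% of all genes. Plvap, the diaphragm protein of fenestrated capillaries, read 7.04, 5.17 and 5.71 against 8.78, 7.36 and 6.56, a difference of 1.59, while Esam and Egfl7, which encode an endothelial junction protein and a secreted vessel factor, differed by 1.43 and 1.28. The podocyte score was -1.90, -1.26 and -1.46 against 0.65, -0.89 and -1.38, and the podocyte median of 0.87 was 0.21 without the arrays numbered 1. Nphs1, which encodes nephrin of the slit diaphragm, read 2.98, 3.92 and 4.07 against 6.83, 4.63 and 4.23, and its difference of 1.57 was 0.43 without them. Cdkn1c, a cell cycle inhibitor of mature podocytes, differed by 1.82 and by 0.21 without them.

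Mural and fibroblast markers had a median of 1.11 over 9 tested of 17 entries and 0.46 without the arrays numbered 1. Their scores were -0.05, -1.72 and -1.78 against 1.70, -1.34 and -1.11. Tagln, a smooth muscle actin-binding protein, read 6.14, 3.71 and 3.71 against 8.66, 4.39 and 4.62, with the array numbered 1 highest in both groups, and its difference of 1.37 was -0.02 without dB/dB catalase-Tg 1. Gata3, a transcription factor of mesangial and collecting duct cells, read 2.71, 2.30 and 2.33 against 4.03, 3.28 and 3.36. The collagens of fibroblasts, Col1a1 and Col3a1, lay below the filter, at 2.52 and 3.03 at most on the 12 arrays.

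Only 14 of 35 leukocyte markers passed the filter, 19 lay below it, and 13 of the 14 were above 0, with a median of 1.26, and 1.77 without the arrays numbered 1. Cd68 of macrophages and Cd3g of T cells were at the floor of 2.30 on every array. Leukocyte scores were 0.50, -1.50 and -1.63 against 2.26, 0.90 and -1.10. Cd74, the invariant chain of MHC class II, read 6.4, 5.29 and 5.06 against 12.39, 7.67 and 5.99, and H2-Aa, a class II chain, 6.83, 5.57 and 5.23 against 12.75, 8.03 and 6.77. Both overlapped between groups, and dB/dB catalase-Tg 3 was close to catalase-Tg 1. Their differences of 3.10 (adjusted p = 0.704) and 3.31 (adjusted p = 0.7) were 1.65 and 2.00 without the arrays numbered 1.

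The interferon and MHC class I list scored highest on dB/dB catalase-Tg 1. Of 29 tested members 28 lay above 0 with a median of 1.01, which was 0.18 without the arrays numbered 1. Its scores were -0.28, -0.91 and -0.79 against 2.02, -0.53 and -0.89. Psmb9, an immunoproteasome subunit, read 3.71, 3.41 and 3.50 against 7.33, 4.38 and 3.83, a difference of 1.63. Tap2, which loads peptides for MHC class I, differed by 1.10, and Ifit2, an interferon-induced RNA-binding protein, by 1.02, with the groups of all 3 genes separate. These were the only 3 of the 29 that were separate, all higher, beside 7.89% of all genes. Leukocyte and endothelial scores were also high on dB/dB catalase-Tg 1, and their part in these values was not tested.

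Tubular injury markers had 22 of 25 tested members above 0, with a median of 0.92, and 0.62 without the arrays numbered 1. Of the 25, 10 were separate, all higher, beside 7.89% of all genes. Krt7, a keratin of collecting duct and injured tubule, read 4.83, 4.78 and 5.27 against 8.98, 7.61 and 7.42, a difference of 3.05 (SE 0.89, adjusted p = 0.619). S100a10, a partner of annexin A2, read 9.62, 9.63 and 9.39 against 10.24, 10.39 and 10.72, a difference of 0.90 (SE 0.23, adjusted p = 0.541). The groups were separate for both. The list's scores were -0.78, -1.16 and -1.10 against 0.81, -0.38 and -0.52. The distal tubule scores above were also higher on all 3 dB/dB catalase-Tg arrays, Umod is in both lists, and the part of distal cells in the injury median was not tested.

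Genes of glycolysis and its control were also higher in part. Of 17 tested, 12 lay above 0, with a median of 0.46, and 0.39 without the arrays numbered 1. Of these 17, 9 were separate, all higher, beside 7.89% of all genes. Pkm, pyruvate kinase M, read 7.0, 6.92 and 6.97 against 10.82, 9.0 and 9.08, a difference of 2.67, and Hk1, hexokinase 1, 6.37, 6.56 and 6.54 against 9.80, 8.09 and 8.45, a difference of 2.29. Pdk1, a kinase that switches off pyruvate dehydrogenase, read 6.03, 6.27 and 6.47 against 8.5, 8.56 and 9.15, a difference of 2.47 (SE 0.57, adjusted p = 0.466) that passed when wild type 1 was left out (0.0118). Txnip, a glucose-induced inhibitor of thioredoxin and of glucose uptake, read 8.58, 7.69 and 7.89 against 11.02, 9.52 and 9.89, a difference of 2.09 (SE 0.76, adjusted p = 0.682). With the distal score as a covariate the differences of Pkm, Hk1 and Txnip became -0.56, -0.63 and -0.23, and that of Pdk1 became 0.98. That score is confounded with the comparison, and the part of distal cells in these genes was not tested.

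Genes of fuel use in the proximal tubule itself differed less. Of 33 fatty acid oxidation and PPAR-alpha genes 25 lay above 0 with a median of 0.16. Of the 33, 3 were separate, all higher, beside 7.89% of all genes. Pdk4, the starvation-induced pyruvate dehydrogenase kinase, read 4.66, 4.94 and 4.51 against 6.49, 5.67 and 6.64, a difference of 1.57. Cyp4a31, a neighbour in function of Cyp4a14, read 7.03, 7.94 and 3.69 against 7.93, 8.55 and 9.92, with overlap.

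Gluconeogenic genes gave a median of -0.02 over 16 with 8 above 0, and 0.18 with 13 above 0 without the arrays numbered 1. Of the 16, 0 were separate in either direction, beside 7.89% higher and 9.97% lower of all genes. Pck1, the rate-limiting carboxykinase, read 13.74, 12.99 and 13.01 against 13.18, 13.66 and 14.63, a difference of 0.57 with overlap. Fbp2, a fructose bisphosphatase, differed by -0.98 with overlap. The 57 respiratory chain subunits had a median of 0.04 and ran from -0.30 to 0.24, the narrowest range of the lists of 10 or more genes. Ndufv2, a complex I subunit, differed by 0.18 without overlap and Cox6c, a complex IV subunit, by 0.24 with it. Of the 57, 1 was separate and higher and 0 separate and lower.

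Lipid and sterol synthesis held 38 tested genes with a median of -0.25, and -0.02 without the arrays numbered 1. Of the 38, 2 were separate and higher and 3 separate and lower, beside 7.89% and 9.97% of all genes. Fads1, the delta-5 desaturase, read 8.78, 8.78 and 8.54 against 7.29, 7.95 and 8.03, a difference of -0.94 (SE 0.26, adjusted p = 0.559). Acacb, the mitochondrial acetyl-CoA carboxylase, read 2.60, 3.32 and 3.06 against 5.63, 4.22 and 4.69, a difference of 1.85 in the opposite direction. Hmgcs1, at the entry to sterol synthesis, read 10.93, 10.92 and 11.64 against 11.19, 12.56 and 12.34, with overlap.

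Redox genes, the setting in which the transgene acts, showed no direction common to their lists. Peroxisomal and antioxidant genes lay mostly below 0 with all arrays but not without the arrays numbered 1. Peroxisomal genes other than Cat had a median of -0.19 with 11 of 46 above 0, and 0.02 with 25 of 46 above 0 without the arrays numbered 1. With all arrays 39.4% of all genes lay above 0. Acaa1a, the peroxisomal thiolase, differed by -0.51 without overlap and Pex10, a peroxisome assembly factor, by -0.43 with it. Of the 46, 0 were separate and higher and 1 separate and lower, beside 7.89% and 9.97% of all genes. Antioxidant enzymes other than Cat had a median of -0.13, with 3 of 22 above 0, and 0.07 with 15 of 22 above 0 without the arrays numbered 1. Glrx2, a mitochondrial glutaredoxin, differed by -0.42, and by 0.03 without the arrays numbered 1. Gpx8, a peroxidase of the endoplasmic reticulum, differed by 1.98 without overlap. Of the 22, 1 was separate and higher and 1 separate and lower.

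NRF2 targets and glutathione transferases had 22 of 35 above 0, with 7 separate and higher, 4 separate and lower, and a median of 0.09, beside 7.89% and 9.97% of all genes separate in these directions. Nfe2l2, which encodes NRF2, the main activator of antioxidant genes, read 8.51, 8.23 and 8.39 against 9.27, 8.96 and 9.40, a difference of 0.83 (SE 0.26, adjusted p = 0.659). Mgst1, a microsomal glutathione transferase, read 9.60, 10.23 and 10.36 against 11.56, 11.56 and 11.79, a difference of 1.58 (SE 0.38, adjusted p = 0.498). Ephx1, the microsomal epoxide hydrolase, read 6.72, 5.53 and 5.07 against 8.83, 7.61 and 7.66, a difference of 2.26 (SE 0.82). These 3 were separate between groups, with the catalase-Tg arrays the lower. Hmox1, heme oxygenase 1, a marker of oxidative stress, read 5.15, 5.79 and 5.71 against 3.85, 5.0 and 5.33, with overlap and a difference of -0.83 (SE 0.48, adjusted p = 0.767).

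Among 9 oxidases the median was -0.02, with 2 separate in each direction, beside 7.89% higher and 9.97% lower of all genes. Maob, monoamine oxidase B, which makes hydrogen peroxide as it breaks down amines, read 4.04, 3.73 and 4.07 against 6.51, 5.76 and 6.74, a difference of 2.39 (SE 0.66, adjusted p = 0.573). Maoa, its partner enzyme, differed by -0.87 and Xdh, xanthine oxidoreductase, by 0.92, both without overlap.

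Apoptosis and the renin-angiotensin system, on which work with catalase in the diabetic tubule has centred, held 0 called genes. Of all probe sets 0.0276% were called. Bmf, a BH3-only activator of apoptosis, read 4.36, 4.27 and 4.29 on the catalase-Tg arrays and 5.16, 4.29 and 4.35 on the dB/dB catalase-Tg arrays. All but dB/dB catalase-Tg 1 lay within the catalase-Tg range, while the dB/dB arrays without the transgene read 5.48 to 5.86. The difference was 0.29 (SE 0.31, adjusted p = 0.847), and 0.04 without the arrays numbered 1. Of 27 apoptosis genes 10 were above 0, with a median of -0.02. Of the 27, 2 were separate and higher and 1 separate and lower, beside 7.89% and 9.97% of all genes. Cdkn1a, the p21 inhibitor of the cell cycle, read 4.35, 4.35 and 4.67 against 5.83, 5.04 and 5.84, a difference of 1.11 (SE 0.23, adjusted p = 0.424) without overlap. Fadd, the death receptor adaptor, read 6.4, 6.65 and 6.54 against 5.61, 6.06 and 6.04, a difference of -0.63 (SE 0.18, adjusted p = 0.594), and Xiap, a caspase inhibitor, differed by 0.49, both without overlap. Casp12, a caspase linked to the endoplasmic reticulum, lay below the filter, at 4.40 at most on the 6 arrays.

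Agt, which encodes angiotensinogen, read 3.95, 4.83 and 4.83 against 4.54, 6.36 and 7.25, with dB/dB catalase-Tg 2 and 3 high and dB/dB catalase-Tg 1 within the catalase-Tg range. Its difference was 1.51 (SE 0.93, adjusted p = 0.776). Of 11 renin-angiotensin genes 4 were above 0, with a median of -0.14. Of the 11, 2 were separate and higher and 1 separate and lower, beside 7.89% and 9.97% of all genes. Ctsa, a lysosomal carboxypeptidase that can act on angiotensin, differed by -0.43 without overlap. Tgfb1, the profibrotic cytokine, lay below the filter, at 2.94 at most on the 6 arrays compared. The 26 fibrosis and matrix genes had a median of 0.35, and 0.11 without the arrays numbered 1. Of the 26, 1 was separate and higher and 1 separate and lower, beside 7.89% and 9.97% of all genes. Lama1, a laminin chain, differed by -0.60 without overlap and Col5a2, a collagen chain, by 1.97 with it.

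Leptin and insulin signalling, the pathway that the dB/dB genotype interrupts, had 14 of 28 genes on each side of 0 and a median of 0.01. Irs2, an insulin receptor substrate, read 4.44, 4.71 and 4.57 against 3.88, 3.85 and 3.85, a difference of -0.71 (SE 0.17, adjusted p = 0.475). Irs2 passed the filter only through the 3 catalase-Tg arrays, which fixed its direction and separation once it was tested. Cish, a feedback inhibitor of STAT5 signalling, read 5.71, 7.33 and 6.46 against 5.24, 5.64 and 4.58, a difference of -1.35. Grb14, an inhibitor of the insulin receptor, read 6.04, 6.29 and 6.22 against 7.65, 7.03 and 7.30, a difference of 1.14. The groups were separate for each of these 3 genes. Of the 28, 4 were separate and higher and 2 separate and lower, beside 7.89% and 9.97% of all genes.

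Genes that respond to androgen, the hormone that also drives the Kap promoter, were lower as a list. Of 16 tested, 1 lay above 0 and the median was -0.81, and -1.18 without the arrays numbered 1. The scores were -0.83, 2.44 and 2.48 on catalase-Tg 1 to 3 and -1.04, 1.46 and 0.54 on dB/dB catalase-Tg 1 to 3, so the 2 arrays numbered 1 were alike and the others separate by group. Timd2, a ferritin receptor gene, was the 1 gene of the 16 separate between groups, beside 9.97% of all genes separate and lower. It read 10.59, 10.27 and 10.42 against 9.25, 9.61 and 8.76, a difference of -1.22 (SE 0.56, adjusted p = 0.726). Cyp4a12a, the androgen-induced arachidonic acid hydroxylase, read 9.98, 12.54 and 12.21 against 6.28, 10.24 and 9.86, a difference of -2.78 (SE 1.83). Kap itself was the member above 0. It read 8.46, 15.26 and 15.22 against 13.04, 15.29 and 14.62, a difference of 1.33 that was -0.29 without the arrays numbered 1, of which catalase-Tg 1 was the low one.

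Female-enriched tubule genes gave a median of -0.01 over 8, with 4 above 0, and 0.51 with 6 above 0 without the arrays numbered 1. Of the 8, 2 were separate and higher and 1 separate and lower, beside 7.89% and 9.97% of all genes. Cyp2d12, a cytochrome P450, read 12.13, 11.44 and 11.39 against 9.56, 9.93 and 10.49, a difference of -1.66 (SE 0.37, adjusted p = 0.463), without overlap. Kynu, kynureninase of tryptophan breakdown, read 3.28, 4.40 and 4.26 against 4.68, 7.35 and 7.66, a difference of 2.58.

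Transporters and endocytic receptors of the proximal tubule had 13 of 45 above 0, a median of -0.21, 2 separate and higher and 8 separate and lower, beside 7.89% and 9.97% of all genes. Slc5a1, the SGLT1 glucose carrier of the late segments, read 3.66, 8.19 and 7.90 against 7.72, 9.02 and 9.37, with overlap and catalase-Tg 1 far below the rest. Slc13a3, a dicarboxylate transporter, read 9.27, 11.94 and 11.98 against 11.79, 12.88 and 13.21, again with catalase-Tg 1 the lowest. Slc6a19, the B0AT1 neutral amino acid carrier of the early segments, read 11.65, 12.08 and 12.22 against 9.56, 11.62 and 11.49, a difference of -1.09 without overlap. Mme, neprilysin of the brush border, read 5.18, 7.52 and 7.49 against 7.73, 8.06 and 7.97, a difference of 1.19. Among 9 transcription factors of the tubule the median was -0.41, and -0.02 without the arrays numbered 1. Of the 9, 1 was separate and higher, Lhx1 at 1.32, and 1 separate and lower, Pax8 at -0.49. The shares of all genes were 7.89% and 9.97%.

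Stress genes completed the lists. Of 27 genes of the unfolded protein response 11 were above 0, and the median was -0.12. Of the 27, 3 were separate and lower, beside 9.97% of all genes. Xbp1, the factor that drives it, read 10.72, 11.30 and 11.19 against 10.21, 10.64 and 10.45, a difference of -0.64 (SE 0.20, adjusted p = 0.677). Sel1l, of the degradation complex in the endoplasmic reticulum, differed by -0.81 and Hsp90b1, the chaperone GRP94, by 0.27, both with overlap. Immediate early and heat shock genes, which respond to handling of tissue, had 22 of 32 above 0 and a median of 0.41. Ier3, an early response gene, read 7.59, 7.58 and 6.8 against 10.11, 9.16 and 9.04, a difference of 2.11, Fosl2, a FOS family factor, differed by 0.65 and Dnajb1, a heat shock cochaperone, by -0.53.

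The same dB/dB contrast could be drawn between the 2 groups without the transgene, which share no array with the 2 compared here. In that contrast limma called 0 probe sets, with 755 at an unadjusted p under 0.05. Over 9751 genes the differences of the 2 contrasts correlated with r = 0.689, and with r = 0.542 without the arrays numbered 1, a description over genes that share arrays and marker content within each contrast. Of the 769 genes higher in dB/dB catalase-Tg without overlap, 687 (89.3%) had a difference above 0 in dB/dB against wild type too, 10 of them without overlap, and 1 was opposite without overlap. Of the 972 lower genes 870 (89.5%) were below 0 there, 130 of them without overlap, and 1 was opposite without overlap. In dB/dB against wild type, 212 of all 9751 genes were separate and higher and 817 separate and lower. Over all genes 74.6% had the same sign in both contrasts. Distal tubule markers had a median of 1.22 in dB/dB against wild type and endothelial markers 1.32, so both contrasts carried differences in the markers of other cells.

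**Figure D4:**
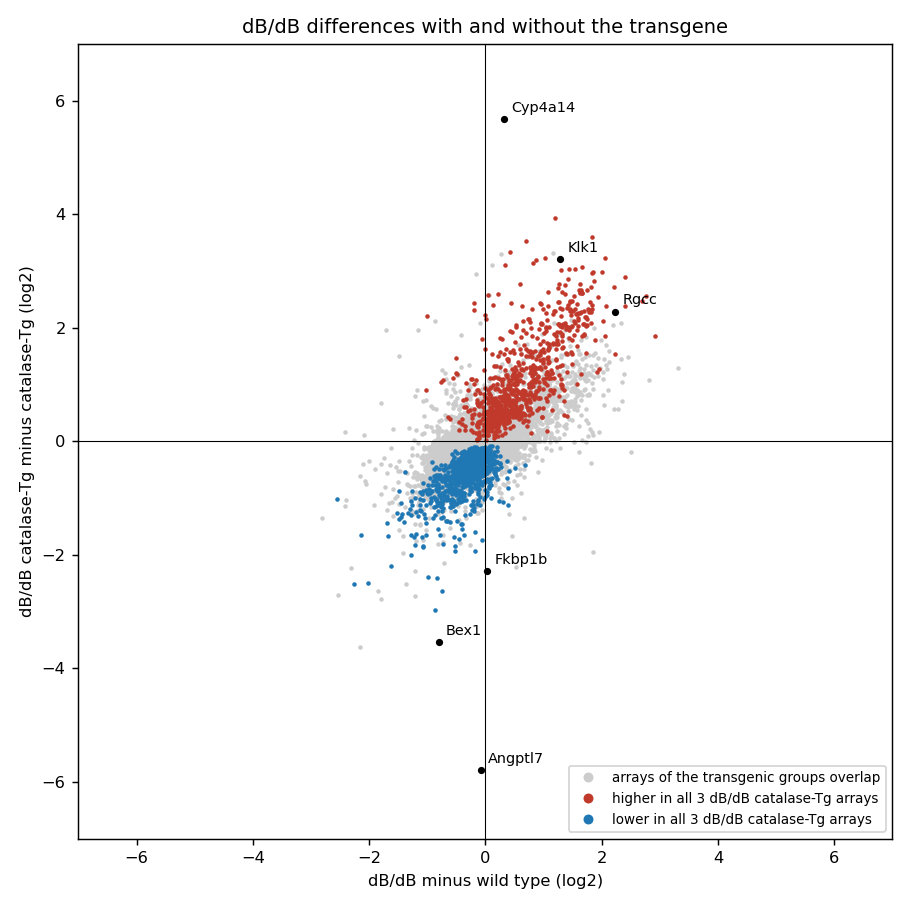
Log2 difference of dB/dB minus wild type (x axis) against dB/dB catalase-Tg minus catalase-Tg (y axis) for 9751 genes, 1 point each, coloured where the transgenic groups do not overlap. The cloud is tilted (r = 0.689), and Angptl7 lies near 0 on the x axis and at -5.79 on the y axis.

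Whether the dB/dB difference itself depended on the transgene was tested as an interaction, which called 1 of 18144 probe sets (0.00551%), Angptl7, with 297 at an unadjusted p under 0.05. Its interaction was -5.71 (adjusted p = 0.0163), since wild type and dB/dB both lay near the floor. There a fall from wild type to dB/dB could not be seen, and Angptl7 passed the filter only through the 3 catalase-Tg arrays. The test thus cannot decide whether such a fall is absent without the transgene. The call did not hold with the replicate number as a block (adjusted p = 0.0527), nor without any 1 of wild type 1 and 2, catalase-Tg 2, the 3 dB/dB and the 3 dB/dB catalase-Tg arrays (lowest adjusted p between 0.0557 and 0.11). The other genes of smallest p in this test did not pass. Fkbp1b had an interaction of -2.31 (adjusted p = 0.15). Rai14, an actin-associated ankyrin repeat protein, read 5.73, 5.23 and 5.46 against 4.46, 4.04 and 4.07, a difference of -1.28 where the interaction was -1.74. Relch, an endosomal cholesterol transfer protein, read 6.18, 6.42 and 5.66 against 4.98, 5.33 and 4.89, a difference of -1.02 and an interaction of -2.0. Nnt, the mitochondrial transhydrogenase that supplies NADPH for peroxide removal, read 9.87, 10.25 and 10.72 against 10.88, 11.15 and 11.33, a difference of 0.84 (SE 0.23, adjusted p = 0.564) and an interaction of 1.52. Klhdc8a, a kelch domain gene, read 5.27, 5.57 and 5.55 against 6.34, 6.36 and 7.06, with an interaction of 1.68. Nnt and Klhdc8a were separate and higher in dB/dB catalase-Tg, and Rai14 and Relch separate and lower.

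Med1, a Mediator subunit, had 1 probe set of 4 tested, the brightest, in which both transgenic groups stood apart from the rest. It read 5.99, 6.12 and 6.32 on the catalase-Tg arrays and 5.54, 6.17 and 6.32 on the dB/dB catalase-Tg arrays. Between these groups it overlapped, with a difference of -0.13 (SE 0.21, adjusted p = 0.894), beside a mean of 8.01 in wild type and 8.28 in dB/dB. Its other 3 tested probe sets differed by -0.04, -0.11 and -0.29 between the transgenic groups, and catalase-Tg minus wild type was -0.32, 0.06 and -0.23 in them against -1.87 in the brightest.

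The position of Angptl7 was looked at because Lepr, the gene that carries the dB/dB defect, lies on the same chromosome, 4, in RefSeq. Over 16270 probe sets with 1 gene on a known chromosome, 220 (1.35%) had an unadjusted p under 0.01. On chromosome 4 it was 22 of 1024 (2.15%), a share that chromosomes 15 (2.76%) and 12 (2.22%) exceeded. Among the 20 tested genes nearest to Angptl7, 10 on each side, 5 were separate between groups, 2 higher and 3 lower, and 4 had a p under 0.01. Among the nearest 50 it was 12, 6 in each direction, and 6 had a p under 0.01. Over all genes 7.89% were separate and higher and 9.97% separate and lower. Neighbours were counted with 1 probe set per gene, while the 1.35% for all chromosomes counts every probe set. With that difference in unit, the shares of neighbours with a p under 0.01 were above 1.35%, and the cause was not tested.

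The 5 nearby genes, which were named after their values were seen, all lay on one side of Angptl7. Clcn6, a chloride-proton exchanger of endosomes, read 8.23, 7.46 and 7.84 against 5.43, 6.18 and 6.12, a difference of -1.93 (SE 0.37, adjusted p = 0.359), and passed when wild type 1 was left out (0.031). Agtrap, which encodes a protein that internalises the angiotensin II receptor, read 8.47, 8.14 and 8.43 against 6.60, 7.80 and 7.47, a difference of -1.06 (adjusted p = 0.541). Fbxo44, a ubiquitin ligase adaptor, read 4.74, 4.76 and 4.30 against 6.54, 5.96 and 5.93, a difference of 1.54 (adjusted p = 0.331). Its neighbour in the same family, Fbxo6, read 5.82, 5.93 and 5.50 against 6.26, 6.70 and 6.32, a difference of 0.68, and Plod1, a collagen lysyl hydroxylase, differed by -0.51. For Clcn6, Agtrap and Fbxo44 wild type averaged 6.22, 7.24 and 5.98, nearer to dB/dB catalase-Tg than to catalase-Tg in each.

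**Figure D5:**
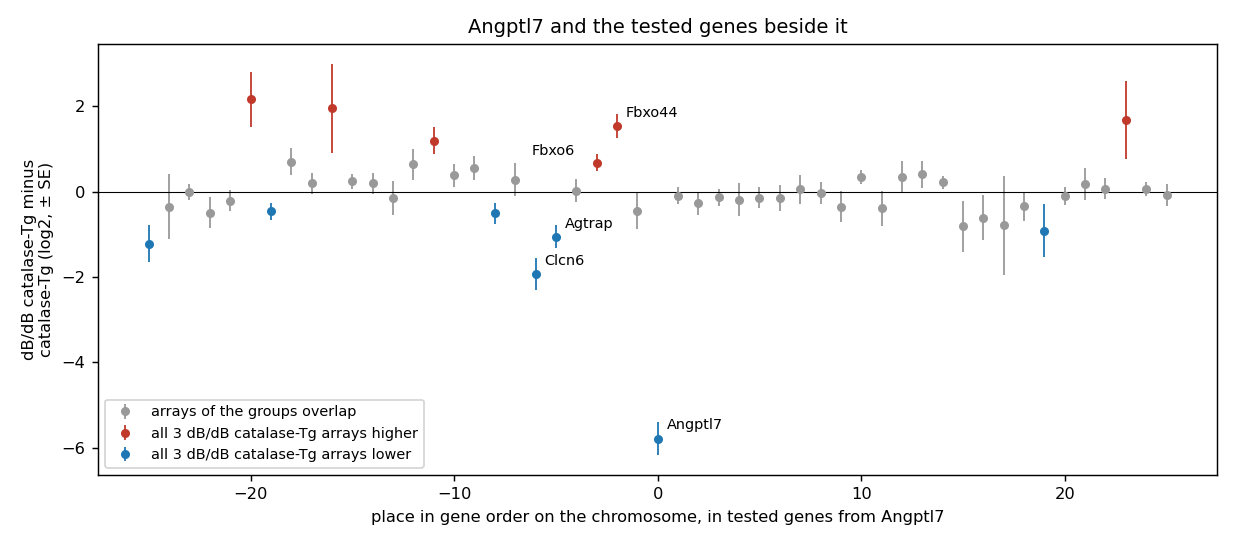
Log2 difference of dB/dB catalase-Tg minus catalase-Tg for the 25 tested genes on each side of Angptl7 on chromosome 4, in order along the chromosome (x axis, rank from Angptl7). Red and blue points are genes whose groups do not overlap, 12 of 50, bars are SE, and Angptl7 is at -5.79.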

How the data were processed

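Total RNA of proximal tubules was measured on 12 one-colour Affymetrix mouse arrays, 3 per group, grouped by the genotype in their labels. The authors deposited log2 values per probe set, made with GCRMA, which corrects background and normalizes between arrays, per the submitters' processing notes, which also name limma and give no versions. The values ran from 2.30 to 15.66 and were used as deposited. Precision is limited by having 3 arrays per group.

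Of 45101 probe sets, 64 controls were left out. GEO's annotation gave 1 symbol to 34945 of the other 45037, several to 932 and none to 9160, and genes were named only from the first. Of 16305 tested probe sets with 1 symbol, 16278 matched RefSeq, and 0 symbols differed. The 18144 probe sets above 4 on at least 3 arrays entered a fit of 4 group means over the 12 arrays by limma (version 3.58.1, R version 4.3.3), with Benjamini-Hochberg adjustment over them and a threshold of 0.05. In counts over genes and in lists, a gene stands for its probe set of highest mean.

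The genes and lists were chosen with earlier results of these data known. The rule names up to 15 called genes in each direction, the 10 highest and 10 lowest, by each gene's probe set of largest difference, without overlap and with a higher mean above 6, up to 3 members of smallest p per list, 9 study genes, and up to 6 genes of smallest interaction p. Rgcc, the neighbours of Angptl7, Egf, Pkm, Hk1, Slc34a1, Slc5a2, Lrp2, Xist, 1440662_at and the further probe sets of Ang and Odc1 were added after their values were seen.

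Samples with the same number deviated together in the groups compared here (r = 0.61, 0.45 and 0.43). Numbers 2 and 3 were not told apart. Catalase-Tg 3 with dB/dB catalase-Tg 2 gave r = 0.56, and catalase-Tg 2 with dB/dB catalase-Tg 3 gave 0.41. The replicate block takes the number to pair samples, though the labels do not say what it marks. Alternatives changed the filter, variance model, weights, normalization, probe sets, fold minimum, block, arrays and marker covariates. The fits were tested on simulated data.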

Additional observations from a re-analysis of the deposited data

Results flagged for a closer look

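The dB/dB difference of Angptl7 differed between mice with and without the transgene by the interaction test. It was -5.79 between dB/dB catalase-Tg and catalase-Tg and -0.08 between dB/dB and wild type, and the interaction was -5.71 (SE 0.55, limma adjusted p = 0.0163). Angptl7 was the 1 probe set of 18144 that passed this test, and it did so because the 3 catalase-Tg arrays read 7.51, 7.96 and 9.47 where the other 9 lay between 2.36 and 2.60. It passed the filter only through those 3 arrays. Wild type lay near the floor, where a fall in dB/dB could not be seen, so the test cannot decide whether such a fall is absent without the transgene. The call was lost with the replicate block (adjusted p = 0.0527) and in 9 of 12 fits that left out 1 array (lowest adjusted p between 0.0557 and 0.11). The cause was not tested.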

How the results depend on the processing

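Of 114 named probe sets, 79 kept their direction in every alternative run for them, 25 to 27 each, and 35 turned in at least 1. Where the dB/dB contrast called 5 probe sets, array weights, whose estimation stopped short of its tolerance, called 883 (428 higher and 455 lower), centring the arrays 1, quantile normalization 3, a fold minimum of 1.5 gave 1, dropping the 3 arrays that stood apart gave 23 (8 higher and 15 lower), and leaving out 1 array gave 1 to 22, with calls in both directions without wild type 1 (11 and 11), wild type 2 (7 higher and 5 lower) or catalase-Tg 1 (1 higher and 4 lower). Chosen after seeing the data, the distal score as a covariate called 1, dropping both compared arrays numbered 1 called 3, and the 6 arrays alone with a replicate block called 0 (limma, lowest adjusted p 0.0875, 2701 at an unadjusted p under 0.05). No filter called 7 (2 of them among the 5), and the replicate block over 12 arrays called 5, of which 4 were shared and Bex1 took the place of 1440662_at. For the interaction, which called 1, no filter called 6, leaving out those 3 arrays 143, the replicate block 0 (427 at an unadjusted p under 0.05), and leaving out 1 array 0 to 2. The count of 10 lists whose medians lay more than 0.5 from that of all genes ran from 7 to 12 when 1 array was left out. The cause of these changes was not tested. The distal score was separate between the groups compared, so as a covariate it is confounded with the comparison. Directions turned under the distal covariate for Slc6a19 (0.49), Lhx1 (-0.41), Fbp2 (1.34), Txnip (-0.23), Acaa1a (0.026), Acacb (-0.69), Gpx8 (-0.99), Ephx1 (-0.051), Maoa (0.45), Xiap (-0.32), Ctsa (0.18), Grb14 (-0.27), Cyp4a12a (0.38), Ier3 (-0.64), Col5a2 (-0.66), Esam (-0.68), Nphs1 (-1.42), Cdkn1c (-2.26), Gata3 (-0.74), Tagln (-1.42), Rhcg (-0.45), Scnn1a (-0.32), Bmf (-0.56), Med1 (0.011), the second Ang probe set (0.12), Pkm (-0.56), Hk1 (-0.63), Slc34a1 (0.24), Slc5a2 (0.019), Lrp2 (1.32) and the brightest Odc1 probe set (0.13). They turned with array weights for Kap (-0.062) and Med1 (0.021), and with the other-cell score for Bmf (-0.015) and Lrp2 (0.11). Without both compared arrays numbered 1, with or without wild type 1, Glrx2 was 0.027, Kap -0.29 and Med1 0.030. Leaving out single arrays, the second Cat probe set ran from -0.12 to 0.61, the first from -0.052 to 0.51, Kap from -0.93 to 2.47, Tagln from -0.018 to 2.18, and Med1 turned to 0.11. Values near the floor of 2.30 limit the size of any difference.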
